A study of Mus musculus with 8 samples.

Results

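The interferon receptors, the Janus kinases (JAKs) that work with them and the SOCS proteins that restrain them were followed at the RNA level in splenic B cells that lack the transcription factor Irf4. The group was fixed by name as 10 genes: the receptor chains Ifnar1, Ifnar2, Ifngr1 and Ifngr2, the kinases Jak1, Jak2 and Tyk2, and the inhibitors Socs1, Socs3 and Cish. Every probe set that the array's annotation pairs with exactly 1 of these genes was taken, which gave 20 probe sets of 34958 with 1 symbol (10 of 18193 genes). All 20 passed the filter on dim probe sets. The arrays came from 12-week-old mice of the strain C57BL/6, 4 of the genotype irf4-/- (Irf4 null) and 4 littermates of the genotype irf4+/+ (wild type), with no treatment named in the labels. Mature B cells had been enriched from spleen with magnetic beads that take away other cells, and 6 µg of total RNA per sample was labelled for 1 Affymetrix array each. The genotype is given for the mouse, so other cells left in a preparation carry it too. The deleted part of the gene, the sex of the mice and whether each array was a mouse of its own are not stated in the labels, and p-values measure the spread between these arrays, which may be partly technical. The comparison asks whether the RNA of the receptors, kinases or inhibitors differed between the genotypes, in preparations where interferon-stimulated genes were higher in Irf4 null.

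Type I interferons bind the receptor formed by Ifnar1 and Ifnar2, and interferon gamma binds the receptor formed by Ifngr1 and Ifngr2. Tyk2 and Jak1 are bound to the type I receptor and Jak1 and Jak2 to the interferon gamma receptor, and the kinases phosphorylate STAT transcription factors, which then enter the nucleus and switch on interferon-stimulated genes. SOCS proteins, of which Cish was an early known member, are themselves induced by STATs and act back on receptors and kinases, so that signalling is self-limiting. In B cells interferons bear on activation, class switching and antiviral defence.

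Signals are linear MAS5 intensities, with the same trimmed mean on all 8 arrays, and fold changes are differences of log2(signal + 16), Irf4 null minus wild type. Irf4 itself was lower on every Irf4 null array, by 2.76 ± 0.12 on the log2 scale at its brighter probe set (SE; limma, adjusted p = 4.6e-06). Markers of B cells were bright on all 8 arrays, with mean log2 signals of 12.33 to 12.70 (wild type) and 12.35 to 12.60 (Irf4 null) over 8 genes. Their median log2 fold change was -0.09. Of the 8, Fcrla alone had an adjusted p below 0.05, lower in Irf4 null by 0.81 ± 0.15 (limma, adjusted p = 0.016). Xist, an RNA of female cells, split the arrays in a way that followed genotype only in part. Wild-type arrays 1, 3 and 4 and Irf4 null array 1 were Xist-high (signals 17119 to 19652). Irf4 null arrays 2, 3 and 4 with wild-type array 2 were Xist-low (49.2 to 94.8), so Xist class and genotype were partly confounded. The mean log2 signal over 54 markers of other blood cells moved with that split. It was 7.90 to 8.29 on Xist-high and 8.96 to 9.67 on Xist-low arrays. Not every cell type followed it. Platelet markers were highest on Irf4 null array 1 (mean log2 signal 9.18) and red cell precursor markers were lowest on Irf4 null array 4 (7.02). In RNA of whole preparations, fewer cells of a type and less RNA per cell cannot be told apart.

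Of the 10 genes 1 changed beyond the threshold: Socs3, an inhibitor of JAK signalling, was 1.51-fold and 1.58-fold higher in Irf4 null at 2 of its 3 probe sets. No receptor and no kinase passed (limma; 2 of 8 and 6 of 7 probe sets had an unadjusted p below 0.05). In counts, 2 of the 20 probe sets were called higher and none lower at an adjusted p below 0.05 (limma, adjusted over 27022 probe sets), where 3.52% of all tested probe sets were called, 2.01% higher and 1.51% lower. At an unadjusted p below 0.05 there were 11 of 20, against 17.1% of all tested probe sets. In 8 of 20 the 4 Irf4 null signals did not overlap the 4 wild-type signals, 4 higher and 4 lower, against 10.8% of all tested probe sets (5.48% higher and 5.33% lower). The median log2 fold change was 0.04 over the 8 receptor probe sets, -0.24 over the 7 kinase probe sets and 0.59 over the 5 inhibitor probe sets, beside 0.003 over all probe sets tested. The 3 probe sets of Socs3 are readings of the same RNA, as are those of the other genes, so they are not independent of each other.

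**Figure D1:**
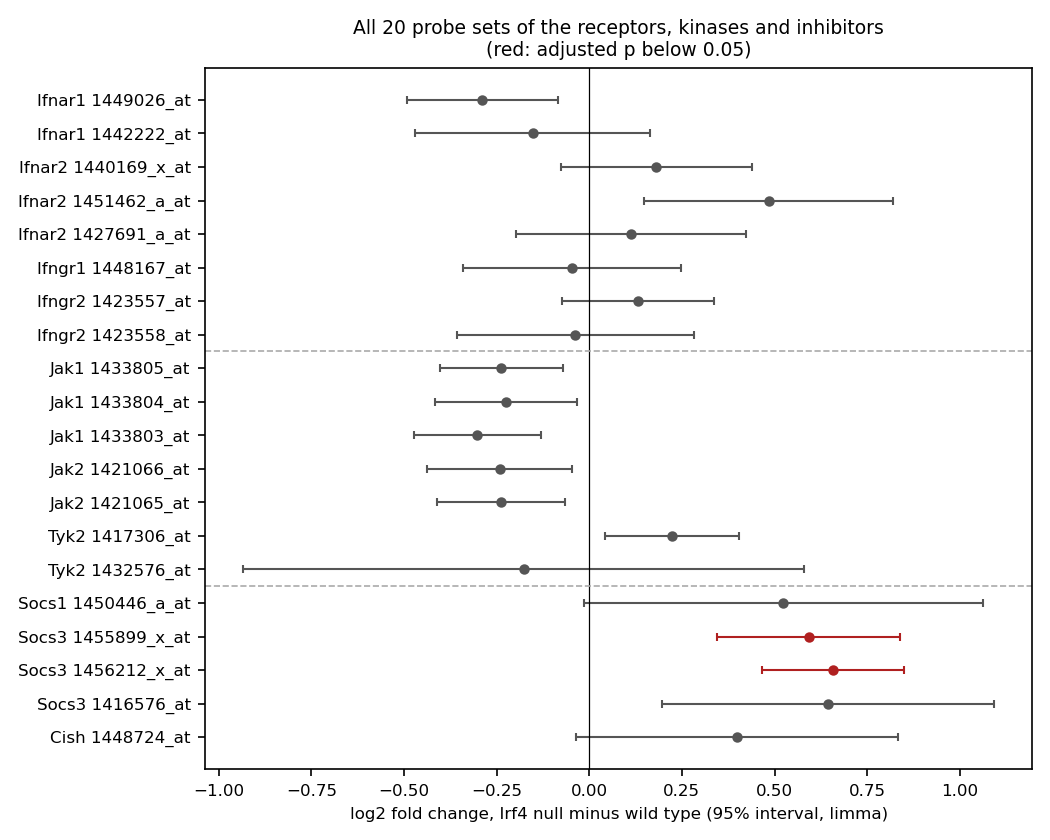
Log2 fold change (Irf4 null minus wild type, x axis) of all 20 probe sets with 95% intervals from limma, grouped by role between dashed lines. The 2 red probe sets, both of Socs3 at 0.59 and 0.66, passed an adjusted p below 0.05, and the probe sets of Jak1 and Jak2 lie between -0.30 and -0.23.

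Ifnar1, the chain of the type I receptor that binds Tyk2, read 1130, 1028, 1249 and 1144 on wild-type arrays 1 to 4 and 844, 893, 983 and 993 on Irf4 null arrays 1 to 4 at its brighter probe set. The groups did not overlap, with the highest Irf4 null array just under the lowest wild-type array, and the log2 fold change was -0.29 ± 0.09 (SE, 95% interval -0.49 to -0.08; limma, adjusted p = 0.13). Its other probe set gave 1110, 806, 1302 and 862 (wild type) and 923, 928, 948 and 805 (Irf4 null). Those groups overlapped, at -0.15 ± 0.14 (adjusted p = 0.657), and this probe set turned to 0.14 within the Xist-low arrays (adjusted p = 0.828).

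Ifnar2, the chain that carries the high-affinity contact with type I interferons and has soluble as well as membrane-bound forms, was read by 3 probe sets, all with a positive difference that did not pass. The brightest read 1643, 2265, 2044 and 1702 (wild type) and 2035, 2202, 1939 and 2467 (Irf4 null), a log2 fold change of 0.18 ± 0.12 (limma, adjusted p = 0.488). The name of this probe set ends in _x_at, the mark of probe sets with some probes that can match other sequences. A second Ifnar2 probe set read 969, 1613, 1041 and 1024 (wild type) and 1362, 1717, 1670 and 1662 (Irf4 null), a log2 fold change of 0.48 ± 0.15 (95% interval 0.15 to 0.82; adjusted p = 0.122). Here 3 wild-type arrays lay near 1000 and the Xist-low wild-type array 2 stood with the Irf4 null arrays. Without that array the value was 0.65 and passed (adjusted p = 0.00286). It was 0.24 with Xist-high as a term (adjusted p = 0.307), 0.06 within the Xist-low arrays (adjusted p = 0.921) and 0.42 within the Xist-high arrays (adjusted p = 0.227). The dimmest Ifnar2 probe set had overlapping signals of 433 to 664 (wild type) and 510 to 666 (Irf4 null), and a log2 fold change of 0.11 ± 0.14.

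Ifngr1, the ligand-binding chain of the interferon gamma receptor and the partner of Jak1, read 2479, 3422, 2194 and 2377 (wild type) and 2137, 2717, 2632 and 2544 (Irf4 null). Wild-type array 2 was again the highest of its group, the groups overlapped, and the log2 fold change was -0.05 ± 0.13 (95% interval -0.34 to 0.25; limma, adjusted p = 0.906). With the Xist-high term Ifngr1 stood at -0.26 ± 0.09 (adjusted p = 0.21). Ifngr2, the signal-passing chain that binds Jak2, read 1969, 2182, 1868 and 1829 (wild type) and 2158, 2231, 1864 and 2365 (Irf4 null), a log2 fold change of 0.13 ± 0.09 (95% interval -0.07 to 0.34; adjusted p = 0.533). Its dimmer probe set, at 250 to 358 (wild type) and 250 to 344 (Irf4 null), gave -0.04 ± 0.15, and the 2 probe sets did not differ beyond the spread of the arrays (exact permutation test, two-sided, p = 0.371; 0.8 adjusted over 4 such pairs). The upper ends of the 95% intervals at the brightest probe sets were 1.19-fold of wild type for Ifngr1 and 1.26-fold for Ifngr2.

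In the mouse genome Ifnar2, Il10rb, Ifnar1 and Ifngr2 follow each other in this order on chromosome 16 (RefSeq, GRCm38.p6), while Ifngr1 is on chromosome 10. Il10rb, a shared chain of the receptors for interleukin 10 and interferon lambda, read 3549 to 4094 (wild type) and 3036 to 3564 (Irf4 null), with a log2 fold change of -0.19 ± 0.08 (limma, adjusted p = 0.248). None of the 4 neighbours passed, and they did not share a sign.

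Jak1, the kinase used by both interferon receptors and by most cytokine receptors of lymphocytes, had a negative difference at each of its 3 probe sets, and none passed. The brightest read 8499, 7728, 8473 and 7959 (wild type) and 6993, 6803, 7695 and 6263 (Irf4 null), a log2 fold change of -0.24 ± 0.08 (95% interval -0.40 to -0.07; limma, adjusted p = 0.124). The groups did not overlap, though Irf4 null array 3 came close to the lowest wild-type array. The middle probe set read 5604, 5508, 6364 and 5445 (wild type) and 4609, 4672, 5688 and 4664 (Irf4 null), a log2 fold change of -0.23 ± 0.09 (adjusted p = 0.206), with array 3 alone of the Irf4 null arrays inside the wild-type range. The dimmest read 4945, 4171, 4585 and 4518 (wild type) and 4019, 3685, 3650 and 3413 (Irf4 null), with no overlap and a log2 fold change of -0.30 ± 0.08 (95% interval -0.47 to -0.13; adjusted p = 0.0603). This last probe set stood nearest to the threshold and passed it when the lowest 60% of probe sets were dropped (adjusted p = 0.0472) or wild-type array 2 was left out (-0.34, adjusted p = 0.0241).

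Jak2, the kinase paired with Ifngr2 and with growth factor receptors, differed by a similar amount. Its brighter probe set read 3585, 3049, 3190 and 3582 (wild type) and 2866, 2806, 3143 and 2519 (Irf4 null), a log2 fold change of -0.24 ± 0.09 (95% interval -0.44 to -0.05; limma, adjusted p = 0.181). The other read 1319, 1319, 1251 and 1344 (wild type) and 1071, 1163, 1164 and 1032 (Irf4 null), with no overlap, at -0.24 ± 0.08 (adjusted p = 0.135). All 5 probe sets of Jak1 and Jak2 were negative with the Xist-high term (-0.26 to -0.19) and within the Xist-low arrays (-0.24 to -0.12) and the Xist-high arrays (-0.33 to -0.22), and none passed there.

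Tyk2, the kinase of Ifnar1, read 790, 861, 799 and 835 (wild type) and 907, 936, 999 and 1004 (Irf4 null). Every Irf4 null array lay above every wild-type array, and the log2 fold change was 0.22 ± 0.08 (95% interval 0.04 to 0.40; limma, adjusted p = 0.18). A dim second probe set, at 54.7 to 78.0 (wild type) and 15.9 to 84.9 (Irf4 null), gave -0.18 ± 0.34 and is near the level of 42.9 below which probe sets were dropped. The Tyk2 probe sets did not differ beyond the spread of the arrays (exact permutation test, two-sided, p = 0.4; 0.8 adjusted over 4 pairs). Over the probe sets of Jak1 and Jak2 and the bright one of Tyk2, the 95% intervals reached down to 0.721-fold (Jak1) and up to 1.32-fold (Tyk2) of wild type.

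**Figure D2:**
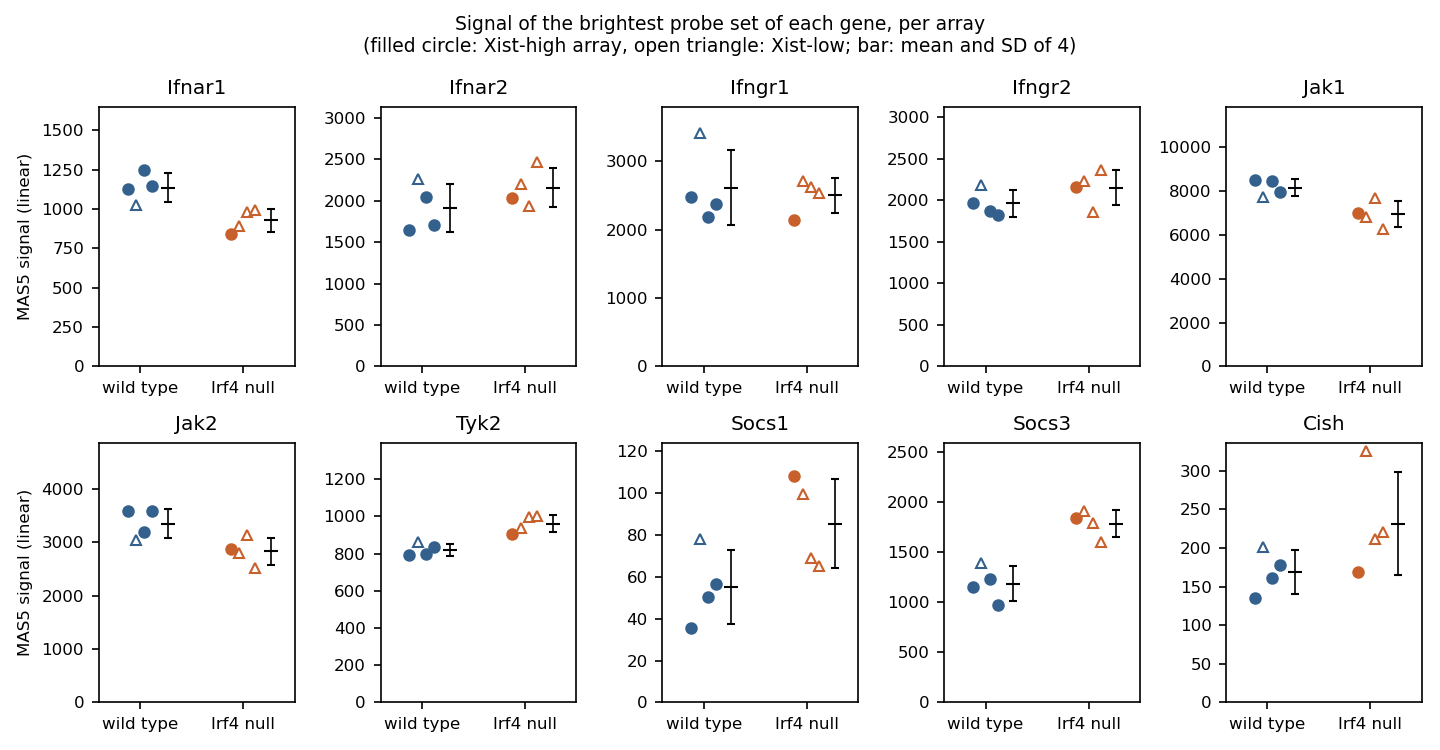
MAS5 signal (linear, y axis from 0) of the brightest probe set of each of the 10 genes on the 4 wild-type (blue) and 4 Irf4 null (orange) arrays, with the mean and SD of each group as a black bar. Filled circles are Xist-high and open triangles Xist-low arrays; Socs3, Tyk2, Ifnar1 and Jak1 show no overlap between the genotypes, with Socs3 at 971 to 1396 against 1601 to 1915.

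The inhibitors are classical feedback genes, and the sequence around each start shows letters of the motifs through which STATs and interferon-activated factors act. These letters lie upstream in Socs1 and Socs3 and within the transcript in Cish. All 3 windows are given by position, and that of Cish also in letters. They are from RefSeq (GRCm38.p6), read 5′ to 3′ on the strand of the gene: Socs1 at chr16:10785537-10785786 (minus strand), Socs3 at chr11:117969367-117969616 (minus strand) and Cish at chr9:107296409-107296678 (plus strand). The windows end at the annotated start, except that of Cish, which runs 20 bases past it. Capitals mark TTCNNNGAA, the motif of STAT dimers, in Cish, and its match in Socs3 is TTCTTAGAA. GAAANNGAAA, the core of the interferon-stimulated response element, has the matches GAAAGAGAAA and GAAACCGAAA in Socs1.
Cish: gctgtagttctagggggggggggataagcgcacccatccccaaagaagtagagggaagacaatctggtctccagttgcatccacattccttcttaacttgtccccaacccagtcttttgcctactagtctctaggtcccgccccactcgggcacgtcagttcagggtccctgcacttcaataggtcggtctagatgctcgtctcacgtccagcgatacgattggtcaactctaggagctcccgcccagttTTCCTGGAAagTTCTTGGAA

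Socs1 held 2 overlapping matches to GAAANNGAAA, which begin 83 and 77 bases upstream of its start. Socs3 held 1 match to TTCNNNGAA, 154 bases upstream, and Cish held 2, which begin at bases 1 and 12 of the annotated transcript. The search covered both strands from 250 bases before to 50 after the start in the 10 genes. TTCNNNGAA was also found in Ifnar1 (5 bases upstream) and Ifnar2 (214 bases upstream), so 4 of 10 windows held it, against 8.30% of the 32851 windows in the table. GAAANNGAAA was found in 1 of 10, against 3.44% of all windows, and GGAANNGAAA, the composite element bound by Irf4 with an ETS partner, in none of the 10, against 2.72%. A match is a description of letters and says nothing of binding.

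Socs3, which binds JAKs and gp130-type cytokine receptors through its kinase inhibitory region and SH2 domain, was the member that changed. The probe set with the smallest p read 687, 770, 716 and 686 (wild type) and 1100, 1146, 1060 and 1244 (Irf4 null). All 4 Irf4 null arrays lay far above the wild-type range, and the log2 fold change was 0.66 ± 0.09, or 1.58-fold (95% interval 1.38 to 1.80; limma, adjusted p = 0.0021), the 154th smallest p of 27022. A brighter probe set read 1153, 1396, 1228 and 971 (wild type) and 1838, 1915, 1791 and 1601 (Irf4 null), a log2 fold change of 0.59 ± 0.11, or 1.51-fold (95% interval 1.27 to 1.79; adjusted p = 0.016). Both names end in _x_at, which Affymetrix gave to probe sets with some probes that can match other sequences.

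The third Socs3 probe set, whose name carries no such mark, was dimmer and more scattered. It read 201, 186, 218 and 174 (wild type) and 239, 447, 378 and 235 (Irf4 null), so that the groups did not overlap but Irf4 null arrays 1 and 4 stood close to wild type. Its log2 fold change was 0.65 ± 0.20 (95% interval 0.20 to 1.09; limma, adjusted p = 0.122), and it did not differ from the other probe sets beyond the spread of the arrays (exact permutation tests, two-sided, p = 0.857 and 0.971; 0.971 for both adjusted over 4 pairs). The probe set with the smallest p also passed with Xist-high as a term (0.61 ± 0.10, adjusted p = 0.00816) and when each array was left out, while the brighter of the called probe sets lost it with that term (0.53, adjusted p = 0.0546), without wild-type array 1 (0.58, adjusted p = 0.0541) and without Irf4 null array 2 (0.56, adjusted p = 0.0588). Within the Xist-low arrays, 1 wild type against 3 Irf4 null, they stood at 0.57 and 0.33 (adjusted p = 0.246 and 0.496), and within the Xist-high arrays, 3 against 1, at 0.65 and 0.72 (adjusted p = 0.0749 and 0.0753). The unmarked probe set went the other way, at 0.82 within the Xist-low and 0.26 within the Xist-high arrays (adjusted p = 0.428 and 0.738), and at 0.54 with the Xist-high term (adjusted p = 0.317).

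Other blood cells also express Socs3, and their markers were set beside it. Of 54 markers of T cells, NK cells, neutrophils, monocytes and macrophages, dendritic cells, red cell precursors and platelets, 2 were called higher in Irf4 null and none lower: Prf1, the pore-forming protein of killer cells (1.33, limma, adjusted p = 0.0122), and the platelet chemokine gene Ppbp (0.81, adjusted p = 0.0415). In sign, 49 of the 54 were positive, against 54.5% of all tested genes, and 16 had an unadjusted p below 0.05, against 20.3%. The median log2 fold change of the 54 was 0.74. It was 1.32 for neutrophil, 1.22 for NK cell and 0.95 for T cell markers, each above the 0.59 to 0.66 of Socs3. It was below that range for platelet (0.50), monocyte and macrophage (0.42), dendritic cell (0.41) and red cell precursor markers (0.13). An unadjusted p below 0.05 (limma) was seen for 6 of 7 NK cell, 5 of 6 platelet and 3 of 9 T cell markers. So it was for 1 of 11 monocyte and macrophage, 1 of 6 dendritic cell, 0 of 4 red cell precursor and 0 of 11 neutrophil markers. The markers' mean log2 signal was 7.90 to 9.42 on wild-type and 8.29 to 9.67 on Irf4 null arrays, and none of the 57 measured markers was at 0 on any array. Wild-type array 2 had a marker mean of 9.42, and Irf4 null array 1 of 8.29. Socs3 read 1396, 770 and 186 on the former and 1838, 1100 and 239 on the latter at its 3 probe sets. With the marker mean as a covariate the log2 fold changes of the called probe sets were 0.62 (limma, adjusted p = 0.00984) and 0.48 (adjusted p = 0.0684), and that of the unmarked probe set was 0.47 (adjusted p = 0.384).

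**Figure D3:**
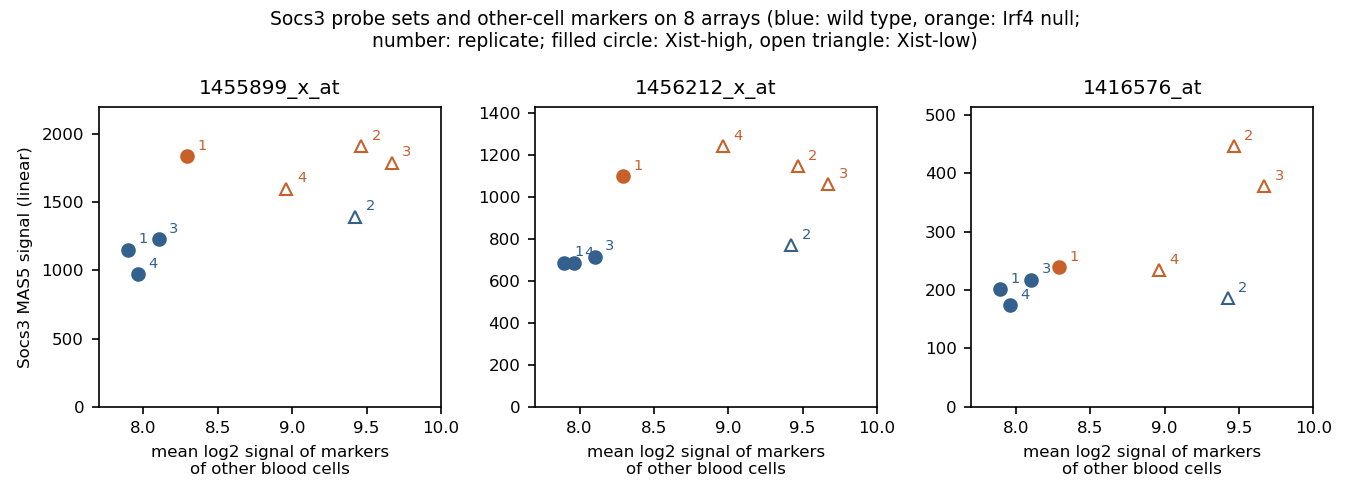
Signal of the 3 Socs3 probe sets (linear, y axis from 0) against the mean log2 signal of 54 markers of other blood cells on each of the 8 arrays, with the replicate number beside each point. Irf4 null arrays (orange) lie above wild-type arrays (blue) in every panel, and wild-type array 2, with a marker mean of 9.42, lies below Irf4 null array 1, with a marker mean of 8.29.

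Socs1, an inhibitor of JAK kinases that is induced by interferons, was dim. It read 35.3, 77.9, 50.2 and 56.6 (wild type) and 108, 99.4, 69.1 and 65.4 (Irf4 null), and wild-type array 2 lay above Irf4 null arrays 3 and 4. The log2 fold change was 0.52 ± 0.24 (95% interval -0.01 to 1.06; limma, adjusted p = 0.307), and the value was -0.02 within the Xist-low and 0.98 within the Xist-high arrays (adjusted p = 0.993 and 0.367). Cish, a SOCS family inhibitor known as a target of STAT5, read 135, 202, 161 and 178 (wild type) and 169, 326, 211 and 221 (Irf4 null). The groups overlapped, with Irf4 null array 2 the highest, and the log2 fold change of 0.40 ± 0.20 (95% interval -0.04 to 0.83; adjusted p = 0.342) was 0.19 with the Xist-high term and 0.23 without Irf4 null array 2.

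Of the other 5 SOCS genes none passed (limma; 2 had an unadjusted p below 0.05), with a median log2 fold change of 0.12 and values of -0.30 ± 0.10 for Socs4 (limma, adjusted p = 0.145) and 0.52 ± 0.21 for Socs2, another STAT5 target (adjusted p = 0.228). Read at 1 probe set per gene, where 4.37% of 11802 genes were called (2.67% higher and 1.7% lower), 3 of 12 other negative regulators rose and none fell. Usp18, which binds Ifnar2 and blocks Jak1 there and is itself an interferon-stimulated gene, read 518, 399, 571 and 496 (wild type) and 1878, 1017, 1456 and 1964 (Irf4 null), a log2 fold change of 1.60 ± 0.19 (adjusted p = 0.0013). Ptpn11, the phosphatase SHP2, read 2345, 2234, 2512 and 2420 (wild type) and 3377, 3466, 3281 and 3851 (Irf4 null). It rose by 0.55 ± 0.08 (adjusted p = 0.00264). Ptpn1, the phosphatase PTP1B, which acts on Jak2 and Tyk2, rose by 0.44 ± 0.08 (adjusted p = 0.013), from 3830 to 4662 in wild type to 5408 to 6191 in Irf4 null. Ptpn1 lost its call with other cell markers as a covariate (0.37, adjusted p = 0.0607) and without a variance trend (0.44, adjusted p = 0.0635), where Usp18 and Ptpn11 kept theirs. The groups of Usp18, Ptpn11 and Ptpn1 did not overlap, and the list's median was -0.10, since 7 of its 12 genes had negative values. Pias3 (-0.36 ± 0.11, limma, adjusted p = 0.115) and Cbl (-0.14 ± 0.06, adjusted p = 0.298) were lower in Irf4 null, also without overlap, and did not pass.

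STATs and Irf9, the factors downstream of the kinases, could be read for 7 of 8 listed genes, and none passed (limma; 1 had an unadjusted p below 0.05). Irf9, the DNA-binding partner of STATs in the type I response, had a log2 fold change of 0.21 ± 0.09 (limma, adjusted p = 0.281) and Stat2 of -0.29 ± 0.14 (adjusted p = 0.341). Jak3 and Ifnlr1, the ligand-binding chain for interferon lambda, did not pass either, Ifnlr1 at -0.50 ± 0.28 (adjusted p = 0.406). The genes of the interferons themselves were dim: 8 of 10 measured fell under the filter, Ifnb1 among them at 23.9 to 43.4 (wild type) and 25.3 to 52.8 (Irf4 null). Ifng, made chiefly by T and NK cells, read 56.7, 89.2, 55.8 and 35.8 (wild type) and 80.2, 160, 138 and 126 (Irf4 null), a log2 fold change of 0.92 ± 0.26 that did not pass (adjusted p = 0.0861). Ifnz stood at 0.51 ± 0.26 (adjusted p = 0.356). NK cell markers had mean log2 signals of 7.81 to 9.50 (wild type) and 8.69 to 10.10 (Irf4 null), and T cell markers of 6.78 to 7.63 and 7.03 to 9.51; their part in the Ifng signal was not tested.

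Genes that respond to these receptors were higher in Irf4 null. Of 28 interferon-stimulated genes 20 rose and none fell, with a median log2 fold change of 0.96, beside 0.043 over the 4 receptor genes and 0.025 over all 11802 genes. Oas1a, a sensor of double-stranded RNA, read 1203, 1284, 1253 and 1059 (wild type) and 3723, 2742, 2924 and 3493 (Irf4 null), and rose by 1.41 ± 0.11 (limma, adjusted p = 8.0e-05). Usp18 (above), the related Oasl2 (1.30 ± 0.15) and the antiviral gene Ifit1 (1.26 ± 0.15) follow it by p. The mean log2 signal of the list was 9.27 to 9.54 on wild-type and 10.06 to 10.46 on Irf4 null arrays, with no overlap, and 20 genes rose with the Xist-high term as well. Within the Xist-low arrays the median was 0.92 and 1 gene passed, and within the Xist-high arrays the median was 0.99 and 14 passed.

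Among 15 tested genes of the interferon gamma response, which share Cxcl10 with the list just described, 7 rose and none fell, with a median of 0.61. The interferon-inducible GTPase Iigp1 rose by 2.41 ± 0.32, the immunoproteasome subunit gene Psmb9 by 0.61 ± 0.08 (limma, adjusted p = 0.0021 for both), and the GTPases Gbp2 by 1.30 ± 0.18 and Igtp by 0.72 ± 0.11. Of 12 other targets of STAT3 and STAT5, Socs2 among them, 1 rose, the stress gene Gadd45g, by 1.10 ± 0.14 (adjusted p = 0.00186), and the median was 0.15. A gene can have several start windows in the table, and was counted here where any of them held a match. GAAANNGAAA was present in 11 of 20 interferon-stimulated genes and 6 of 12 interferon gamma response genes with a window, and in none of 8 STAT3 and STAT5 targets, against 3.99% of all genes with a window. TTCNNNGAA was present in 5 of 20, 5 of 12 and none of 8, against 9.55% of all genes.

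**Figure D4:**
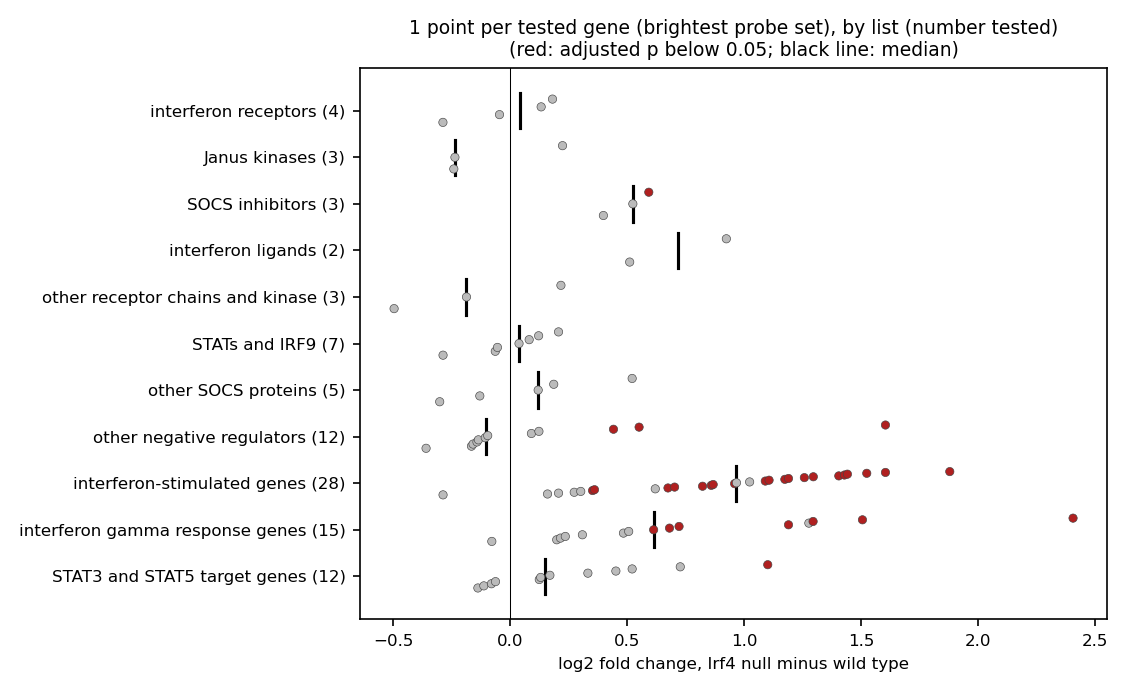
Log2 fold change (Irf4 null minus wild type, x axis) of each tested gene at its brightest probe set, 1 point per gene, by list, with the median as a black line. Red points passed an adjusted p below 0.05: 1 of the 3 inhibitors, none of the receptors, kinases or STATs, 3 of 12 other negative regulators and 20 of 28 interferon-stimulated genes.

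The genes whose pattern over the 8 arrays was most like that of Socs3 were sought among 11801 genes by the root mean square difference between log2 deviations from the wild-type mean. The nearest to the Socs3 probe set with the smallest p were Pld4, an endolysosomal exonuclease (0.071 on the log2 scale, with a log2 fold change of 0.59), Tmem18 (0.076, with 0.61) and the nucleoside transporter gene Slc29a3 (0.083, with 0.58).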

How the data were processed

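RNA from 8 splenic B cell preparations, 4 Irf4 null and 4 wild type, was read on Affymetrix arrays. The deposited values are linear intensities made by the authors with MAS5 (version not given), per the submitters' processing notes. Their mean, trimmed by 2% at both ends, is 500.003 for each array, and nothing was rescaled. Detection calls are not used here, so dim signal and background are alike, and precision is limited by the number of arrays.

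Names came from the platform annotation (34958 with 1 symbol, 932 with several, 9211 unnamed here), with 34754 symbols updated through gene identifiers to RefSeq (GRCm38.p6). The 64 control probe sets and the lowest 40% by mean log2(signal + 16) were dropped, which left 27022. The genotypes were fitted in R 4.3.3 by limma 3.58.1 (lmFit, trended eBayes), p-values adjusted by Benjamini-Hochberg across the 27022 and a threshold of 0.05. The fit was tested on simulated data. Genes in lists, 1 of which can belong to several, were read at the probe set with the highest mean. Pairs of probe sets of a gene that differed in call or sign were compared with exact permutation tests, whose smallest p is 0.0286.

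Named genes are all members and Irf4, the called genes of each pathway list (up to 4, or else the 2 with the smallest p), the 4 called response genes with the smallest p in each list, and the 3 genes nearest in pattern to each called member. Members, lists and the Xist split (signal over 1000) were chosen with earlier results of these data known. Alternatives were the pseudocount, the filter, quantile normalization, median centring, no variance trend, the replicate block, the Xist-high term, Xist-low and Xist-high arrays alone, other cell markers as a covariate, and each array left out. Figures used matplotlib 3.10.9.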

Additional observations from a re-analysis of the deposited data

Results flagged for a closer look

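Among the 20 probe sets, 40 groups of 4 arrays were searched for an array that stands far from the other 3, and 4 such arrays were found; chance gives about 1 in 20 groups. At the Ifnar2 probe set with signals near 1000 in wild type, wild-type array 2 read 1613, above the other 3 at 969 to 1041, and Irf4 null array 1 read 1362, below the other 3 at 1662 to 1717. These are the arrays that stand apart from their genotype by Xist and by the mean of the markers of other blood cells. At the dimmer Ifnar1 probe set Irf4 null array 4 read 805, below the other 3 at 923 to 948. At the middle Jak1 probe set Irf4 null array 3 read 5688, above the other 3 at 4609 to 4672.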

How the results depend on the processing

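Of 398 values of the 20 probe sets under the alternatives, 370 kept their direction and their side of the threshold, 9 lost a call, 3 gained one and 16 changed sign. The 16 belong to values that did not pass in any setting: within Xist-low arrays Ifnar1 (0.14), Ifnar2 (-0.047 and -0.093), Ifngr2 (-0.026), Tyk2 (0.37) and Socs1 (-0.018); within Xist-high arrays Ifnar2 (-0.0039) and Ifngr2 (0.027); Ifnar2 with the Xist-high term (-0.048) and the marker covariate (-0.046); and, with an array left out, Ifngr1 (-0.12 to 0.089), dimmer Ifngr2 (-0.13 to 0.046) and dim Tyk2 (-0.35 to 0.20). The count of 2 called probe sets became 1 without a variance trend, with the Xist-high term and with the marker covariate, and 0 within Xist-low and within Xist-high arrays (limma; 3 and 7 at an unadjusted p below 0.05, in fits of 4 arrays), and was 1 to 4 with an array left out, 4 without wild-type array 2 and 1 without wild-type array 1 or Irf4 null array 2. Over all probe sets 950 calls became 555 without a variance trend, 117 within Xist-low and 322 within Xist-high arrays, and were 466 to 2172 with an array left out, 2172 without wild-type array 2. The 3 called pathway genes became 0 within Xist-low (limma; 2 at an unadjusted p below 0.05) and 1 within Xist-high arrays (3 to 4 with an array left out), and the 27 response genes became 2 within Xist-low and 19 within Xist-high arrays (20 to 29 with an array left out). In fits that leave 1 array in a group, that array is assumed to vary like the others. Irf4 kept its call in every alternative (-2.82 to -2.68 with an array left out). Same-numbered arrays did not deviate together throughout (correlations 0.24, 0.28, -0.03 and -0.08), so the numbers are not taken as pairs; with the replicate block 1168 probe sets, the same number of member probe sets (2), 3 pathway genes and 28 response genes were called. Median centring called 384 higher and 418 lower, against 543 and 407. The lowest 60% filter leaves out Socs1 and the dim Tyk2 probe set.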
